A study of Mus musculus with 8 samples.

Results

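The comparison described here set late against early days of osteogenic culture in MC3T3-E1 sc4 cells, a cloned pre-osteoblast line derived from mouse calvaria. The early side held the libraries titled day 6 and day 10, and the late side those titled day 17 and day 24. Day 0 and bone were left out of the test. Members were mature miRNAs with at least 10 counts in at least 2 of the 4 libraries, after the entries of each mature miRNA had been summed. Of 1281 mature miRNAs in the deposited table, 380 passed that filter and 901 did not. Of the 380, 338 had 10 counts or more in all 4 libraries, 3 passed only through the early libraries and 3 only through the late ones.

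All 4 libraries came from cells with no genetic change named in the labels, which received the same osteogenic agents, ascorbic acid and β-glycerol phosphate, at passages 10 to 15. Each library was a pool of equal amounts of RNA from 3 cultures of 1 day, so no single day had a replicate library. The libraries of a side were thus different days, and the spread within a side includes any change between those days. Context came from 1 MC3T3 library titled day 0, described as undifferentiated, and 3 libraries of calvaria (parietal and frontal bones) from 2 to 3 days old female C57BL/6 mice carrying Prrx1-Cre, digested with collagenase and trypsin. Whether each calvaria library was a separate animal is not stated, so ranges over calvaria describe the spread between libraries, which may be technical. The column names give each culture a day that is 3 lower than its title does, and titles were followed throughout. The column names of the 4 libraries compared also carry the mark veh, and that of day 0 does not. The mark was not interpreted here.

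Small RNA libraries held between 2742368 and 3940372 miRNA counts on the 4 days, and the 10 most abundant miRNAs took 61.8 to 62.4% of them. miRNAs of mesenchymal cells, the lineage of the line itself, summed to between 303325 and 368966 RPM, the deposited read counts scaled to one library total. The endothelial markers miR-126-3p and miR-126-5p summed to between 6.2 and 19.01 RPM against at least 9028 RPM in calvaria, and epithelial markers to between 5.15 and 15.67 RPM. Blood cell markers summed to 84.12 to 110.6 RPM striated muscle markers to 212.6 to 217.4 RPM, markers of the nervous system to 338 to 416.1 RPM and cartilage markers to 26001 to 28775 RPM. Of all these cell type markers miR-499-5p rose and miR-21a-5p, a mesenchymal marker, fell.

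Osteoblasts first proliferate, then lay down and mature a collagen matrix, and later mineralize it. A miRNA loaded into an Argonaute protein binds messenger RNAs mainly through its seed, and miRNAs with the same seed share most of their predicted targets. miRNAs are often made in clusters from 1 primary transcript, and each hairpin yields a 5p and a 3p arm. Several miRNAs are known as regulators of bone formation: members of the miR-29 family bind transcripts of collagens and of osteonectin, and miR-210 is a classic target of hypoxia-inducible factors.

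The sequences on which the results turn are grouped by seed. They are RefSeq entries on build GRCm38.p6, written 5′ to 3′, and the capitals mark bases 2 to 8, the seed. RefSeq sequences of the same name were found for 287 of the 380 miRNAs tested and 47 of the 55 that passed the test. The first group holds miRNAs that rose late, with seed mates beside them: the miR-181 pair, the miR-29 family, the miR-27 pair, of which 1 rose, and miR-210-3p and miR-149-5p.
miR-181a-5p: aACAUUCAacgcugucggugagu
miR-181b-5p: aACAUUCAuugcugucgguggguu
miR-29a-3p: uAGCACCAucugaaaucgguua
miR-29b-3p: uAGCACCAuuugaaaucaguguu
miR-29c-3p: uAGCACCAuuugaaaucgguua
miR-27a-3p: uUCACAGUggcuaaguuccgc
miR-27b-3p: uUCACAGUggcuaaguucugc
miR-210-3p: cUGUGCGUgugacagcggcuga
miR-149-5p: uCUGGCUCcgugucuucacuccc

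The miR-17 seed is shown because 3 of its 4 tested carriers fell late, and miR-196a-5p and miR-21a-5p because they were among the miRNAs that fell most in fold and in reads.
miR-17-5p: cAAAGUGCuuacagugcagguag
miR-20a-5p: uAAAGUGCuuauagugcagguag
miR-93-5p: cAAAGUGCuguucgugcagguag
miR-106b-5p: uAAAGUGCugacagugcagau
miR-196a-5p: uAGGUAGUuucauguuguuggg
miR-21a-5p: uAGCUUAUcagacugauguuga

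The next group holds relatives of which 1 rose and another fell or did not pass: carriers of the miR-15 seed with miR-503-5p, whose seed is a near match, then the miR-99 seed and the arms of miR-125b.
miR-195a-5p: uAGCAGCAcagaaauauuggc
miR-16-5p: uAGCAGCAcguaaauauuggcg
miR-15b-5p: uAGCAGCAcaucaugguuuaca
miR-503-5p: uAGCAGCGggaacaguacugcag
miR-99a-5p: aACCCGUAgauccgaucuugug
miR-100-5p: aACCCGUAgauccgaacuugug
miR-125b-5p: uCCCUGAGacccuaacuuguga
miR-125b-1-3p: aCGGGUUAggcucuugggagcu
miR-125b-2-3p: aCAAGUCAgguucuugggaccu

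The last sequences bear on how the reads of 2 near-identical pairs can be assigned. All 19 bases of miR-101c lie within miR-101a-3p, and miR-3473b and miR-3473e share their first 18 bases.
miR-101a-3p: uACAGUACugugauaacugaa
miR-101c: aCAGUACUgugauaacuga
miR-101b-3p: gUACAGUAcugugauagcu
miR-3473b: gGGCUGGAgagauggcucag
miR-3473e: gGGCUGGAgagauggcucgua

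Late and early days differed in a limited set of miRNAs. With the edgeR quasi-likelihood test and Benjamini-Hochberg adjustment over all 380, 26 miRNAs were higher late (6.84%) and 29 were lower late (7.63%) at an adjusted p under 0.05. The median log2 change over all 380 was -0.07, and 279 (73.4%) lay within 1.5-fold. Of all 380, whether or not they passed, 16 had a fitted rise of more than 2-fold and 15 a fitted fall of more than 2-fold. Both late libraries lay above both early ones for all 26 that rose, where 24.2% of all miRNAs did so, and below both for 27 of the 29 that fell, where 29.2% did so. The exceptions were miR-18a-5p and miR-486-3p. Levels went up at each step from day 6 to day 24 for 15 of the 26, where 10.8% of all miRNAs did. Levels went down at each step for 13 of the 29, where 11.3% did. The 26 and 29 were called from these same libraries. Their separation and order of days thus follow at least in part from the calls and are no independent evidence for them. Among those without overlap are miR-871-3p and miR-32-3p, whose direction was largely fixed by the count filter.

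**Figure D1:**
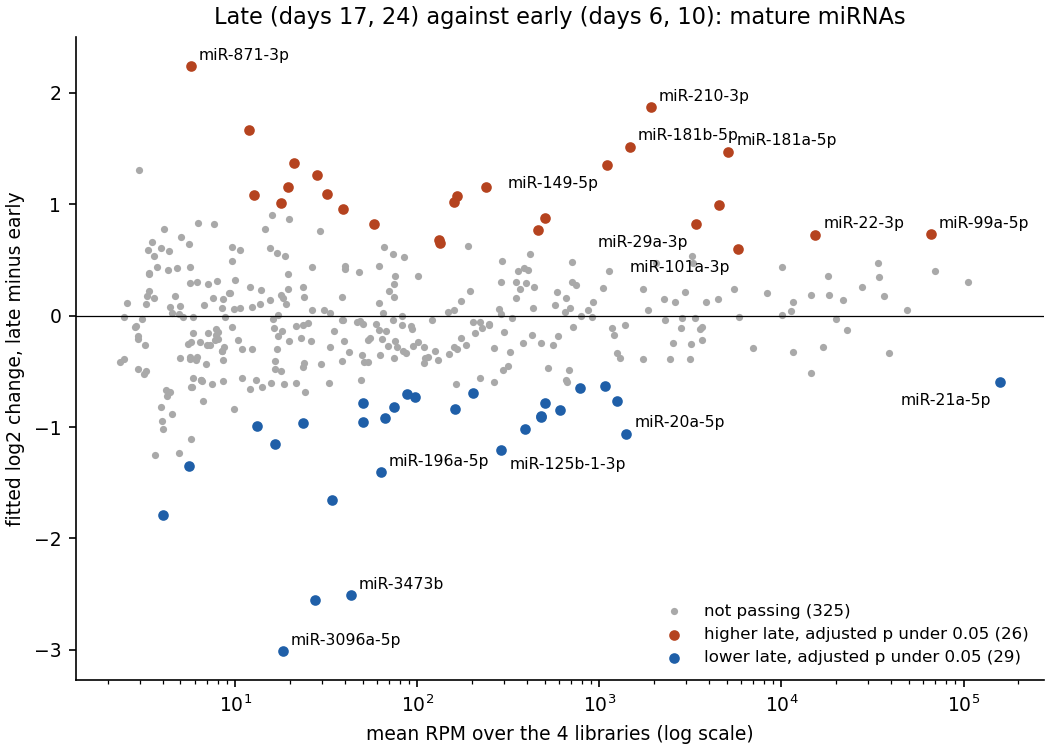
Fitted log2 change of late against early (y axis) for 380 mature miRNAs, against their mean level in RPM over the 4 libraries (x axis, log scale). Red points are the 26 higher late and blue points the 29 lower late at an adjusted p under 0.05, and grey points did not pass. Calls occur both among scarce miRNAs, such as miR-871-3p, and at miR-21a-5p, the most abundant miRNA.

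The number of miRNAs that passed differed widely between settings. With 2 residual degrees of freedom the prior degrees of freedom of edgeR came out infinite, so every miRNA was tested against a spread pooled over all miRNAs (common biological coefficient of variation 0.166), and its own scatter did not enter its p. The SE given with log2 changes was derived from the same test, so it does not hold a miRNA's own scatter either. With library totals in place of TMM factors, where the prior degrees of freedom were also 5.06 rather than infinite, 6 rose and 5 fell, and limma on log2 RPM called the same 11: miR-149-5p, miR-181a-5p, miR-181b-5p, miR-22-3p, miR-27a-3p and miR-29a-3p rose, and miR-21a-5p, miR-3096a-5p, miR-3096b-5p, miR-3473b and miR-3473e fell. 2 that rose (miR-149-5p and miR-181b-5p) and 2 that fell (miR-3473b and miR-3473e) passed under all 15 settings listed for the analysis. Leaving out 1 library leaves 1 residual degree of freedom. The count filter was reapplied to each such fit, so 1 called miRNA dropped out of it. That was miR-32-3p without an early day and miR-871-3p without a late day. Of the 54 called miRNAs that could then be refitted, 29 lost their call when day 6 was left out, 3 when day 10 was, 30 when day 17 was and 32 when day 24 was. The calls kept whichever library was left out were 6 that rose (miR-146a-5p, miR-149-5p, miR-181b-5p, miR-210-3p, miR-378d and miR-499-5p) and 5 that fell (miR-196a-5p, miR-3096a-5p, miR-3096b-5p, miR-3473b and miR-3473e). When limma used each miRNA's own spread alone, 0 rose and 0 fell after adjustment, with 20 and 26 at an unadjusted p under 0.05.

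**Figure D2:**
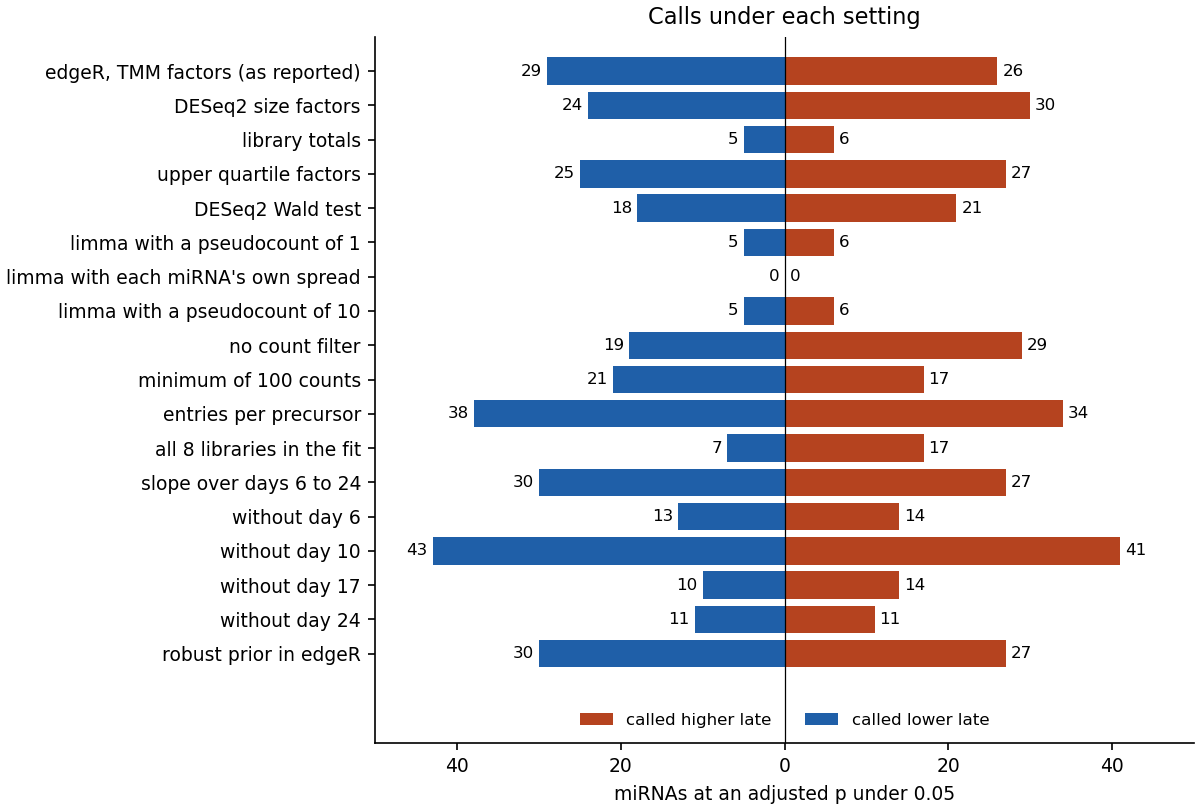
Number of miRNAs at an adjusted p under 0.05 (x axis) that were higher late (red, to the right) or lower late (blue, to the left) under each setting (y axis). The bars run from 0 and 0 with each miRNA's own spread to 41 and 43 without day 10, against 26 and 29 as reported.

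The miR-181 family, known from lymphocyte development, rose in most of its tested members. Of its 5 tested members 4 rose and 0 fell, where 6.84% of all 380 rose. The median log2 change was 1.08 against -0.07 over all miRNAs, and miR-181d-5p did not pass (log2 0.31). miR-181a-5p stood at 2720, 2943, 5823 and 8975 RPM on days 6, 10, 17 and 24. It was lowest on both early days and highest on day 24. The sides did not overlap, which here and below was a condition for naming the largest changes. The fitted log2 change was 1.47 ± 0.22 (SE), a 2.78-fold rise (edgeR adjusted p = 1.11e-09). Of those 15 settings, the 1 that ended the call was leaving out day 24 (edgeR adjusted p = 0.0502). miR-181b-5p stood at 856.4, 740.4, 1671 and 2601 RPM, again with day 24 on top and no overlap, and rose by 1.52 ± 0.23 on the log2 scale (edgeR adjusted p = 4.21e-09).

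Both come from a pair of loci. Mir181a-1 and Mir181b-1 lie at chr1:137966455-137966718 (GRCm38, plus strand) over exon sequence of the lincRNA A430106G13Rik, and Mir181a-2 and Mir181b-2 at chr2:38852735-38853918 within an intron of Nr6a1 on the opposite strand. The 5p arms have the same sequence at both loci, so their counts do not tell the loci apart, but the 3p arms do. miR-181a-1-3p, from the chromosome 1 locus, stood at 111.1, 111.6, 177.4 and 263.5 RPM and rose by 1.07 on the log2 scale (edgeR adjusted p = 0.000173). miR-181b-1-3p, from the same locus, stood at 10.46, 6.44, 13.96 and 20.06 RPM and rose by 1.08 (edgeR adjusted p = 0.0241). All 4 miRNAs tested from that cluster were therefore higher late. In calvaria miR-181a-5p measured 11591 RPM on average (range 11106 to 12197, n = 3), above every culture day, and miR-181b-5p 3024 RPM (range 2524 to 3337, n = 3), a range that includes the level of day 24.

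miR-210-3p, the hypoxia-responsive miRNA, had the largest change among miRNAs averaging at least 50 RPM. It stood at 356.5, 1308, 3311 and 2673 RPM on days 6, 10, 17 and 24. Day 6 was far below the other days, and the late pair was above both early days. The fitted change was 1.87 ± 0.23 on the log2 scale, or 3.66-fold (edgeR adjusted p = 2.42e-13). The early days differed widely from each other, a scatter that the SE does not hold. The call was lost under some settings: the adjusted p was 0.117 with library totals in edgeR, 0.152 with the DESeq2 Wald test and 0.46 with a robust prior in edgeR. Without day 6 the change was 1.18, and without day 10 it was 3.27. Its passenger arm, miR-210-5p, stood at 8.56, 25.45, 43.4 and 35.01 RPM and rose by 1.26 (edgeR adjusted p = 0.00061). The hairpin lies at chr7:141221384-141221493 (GRCm38, minus strand), outside annotated genes. Calvaria held 492 RPM of miR-210-3p (range 381.1 to 560.5), between the levels of day 6 and day 10, and day 0 held 100.2 RPM.

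miR-149-5p lies in an intron of Gpc1, which encodes the proteoglycan glypican 1, at chr1:92850378-92850443 (GRCm38). It stood at 600.5, 684.5, 1355 and 1752 RPM on days 6 to 24, with both late days well above both early ones. It rose by 1.35 ± 0.23 on the log2 scale, or 2.56-fold (edgeR adjusted p = 3.61e-07), and its change without any single library stayed between 1.12 and 1.59. Day 0 (774.1 RPM) and calvaria (732.5 RPM, range 664.4 to 831.8) were near the early cultures rather than the late ones. miR-378d rose as well, by 1.15 (edgeR adjusted p = 4.35e-05), from 167.8 and 140.9 RPM to 376.6 and 272.1 RPM. The far more abundant miR-378a-3p stood at 4530, 5731, 6181 and 5405 RPM and did not pass (log2 0.24, edgeR adjusted p = 0.513). Neither miR-378b (log2 0.76) nor miR-378c (log2 0.41) passed.

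**Figure D3:**
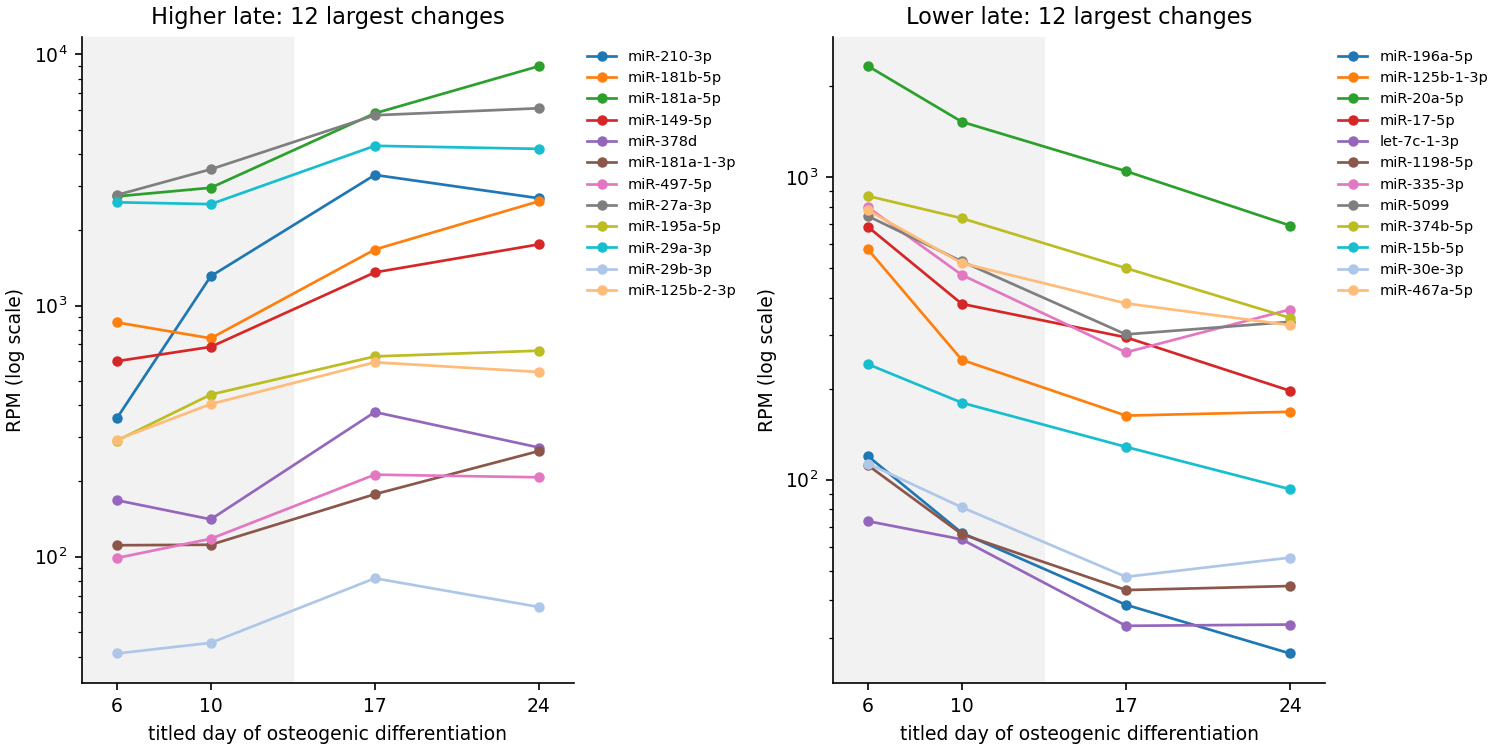
Level in RPM (y axis, log scale) on the 4 titled days (x axis) of the 12 miRNAs with the largest rise (left) and the 12 with the largest fall (right) among those averaging at least 50 RPM with no overlap between sides, 1 library a day. The shaded area holds the early days. miR-210-3p starts at 356.5 RPM on day 6 and reaches 3311 RPM on day 17, and miR-20a-5p declines from 2332 to 692.6 RPM.

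The miR-29 family, whose members repress collagen and other matrix transcripts, had 2 members that rose and 0 that fell of 6 tested. Over all 380, 6.84% rose. The fitted log2 changes of all 6 were above 0 under each scaling, from 0.43 to 0.82 with a median of 0.70, but 4 did not pass. miR-29a-3p stood at 2576 and 2533 RPM early and at 4323 and 4204 RPM late. Libraries of a side were close to each other and the sides well apart. The change was 0.82 ± 0.22 on the log2 scale, or 1.76-fold (edgeR adjusted p = 0.0027). miR-29b-3p stood at 41.2, 45.41, 82.06 and 63.09 RPM and also rose by 0.82 (edgeR adjusted p = 0.0163). miR-29c-3p, which differs from miR-29a-3p by 1 base, stood at 12.94, 12.51, 20.09 and 16.65 RPM and did not pass (log2 0.61, edgeR adjusted p = 0.265). Mir29a and Mir29b-1 lie together at chr6:31062660-31063093 (GRCm38, minus strand). Day 0 held 2784 RPM of miR-29a-3p, and calvaria 646.5 RPM (range 575.1 to 721), below every culture day. The call on miR-29a-3p was lost without day 17 (edgeR adjusted p = 0.146) or day 24 (edgeR adjusted p = 0.24).

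miR-101a-3p, the miRNA in the title of the series, stood at 3608, 5832, 6528 and 7174 RPM. It rose at each step, with its widest step between the early days. The change was 0.60 ± 0.21 on the log2 scale, or 1.52-fold (edgeR adjusted p = 0.034). It passed under 3 of the 15 settings, and without day 6 the change was 0.23 (edgeR adjusted p = 0.655). Calvaria held 4323 RPM (range 3765 to 4909) and day 0 1015 RPM. miR-101c stood at 17.27, 24.96, 38.7 and 47.4 RPM and rose by 1.09 (edgeR adjusted p = 0.00274), but since its sequence lies within miR-101a-3p the 2 are uncertain as separate signals. miR-101b-3p, the other abundant member of the family, stood at 3000, 3008, 2673 and 2589 RPM and did not pass (log2 -0.11, edgeR adjusted p = 0.806). The miR-101a hairpin lies at chr4:101346945-101347027 (GRCm38, minus strand) in an exon of the lincRNA E130102H24Rik.

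Among the clusters of miR-23, miR-27 and miR-24 1 of 10 members tested rose and 0 fell, with a median of 0.22. That is near the 6.84% of all 380 that rose. The riser, miR-27a-3p, stood at 2755, 3486, 5721 and 6099 RPM, rising at each step with the late days apart from the early ones. The change was 0.99 ± 0.21 on the log2 scale, or 1.99-fold (edgeR adjusted p = 0.000121, and 0.163 without day 24). Its 1-base variant miR-27b-3p, made from another chromosome, was far more abundant at 24534, 27210, 28608 and 29939 RPM and did not pass (log2 0.26, edgeR adjusted p = 0.431). Cluster mates of miR-27a did not pass either: miR-23a-3p had a log2 change of 0.24 and miR-24-3p of 0.21, and the other arm, miR-27a-5p, of -0.35. The summed level of the shared seed was 1.28 times as high late as early in CPM, counts scaled by library total and TMM factor.

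miR-22-3p, an abundant miRNA best known from muscle and heart, stood at 12004, 11852, 18544 and 18807 RPM. The days of each side were nearly alike and the sides did not overlap. It rose by 0.73 ± 0.20 on the log2 scale (edgeR adjusted p = 0.00373, but 0.127 without day 17 and 0.333 without day 24), and its other arm miR-22-5p by 0.68 (edgeR adjusted p = 0.034), from 103.9 and 104 RPM to 160.6 and 155.3 RPM. The hairpin lies in an exon of Mir22hg at chr11:75463716-75463810 (GRCm38). Day 0, at 17269 RPM of miR-22-3p, was above both early days and close to the late ones.

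In the family of miR-99, miR-100 and miR-125, 2 of 11 tested members rose and 1 fell, with a median of -0.29. Over all 380, 6.84% rose and 7.63% fell. miR-99a, miR-100 and miR-125b come with let-7 miRNAs from related clusters on chromosomes 16 and 9. Those of miR-99b and miR-125a lie with let-7e on chromosome 17. miR-99a-5p, next to let-7c-1 on chromosome 16 in an intron of Mir99ahg (chr16:77598936-77599750, GRCm38), stood at 42324, 59533, 82000 and 80008 RPM. It made up 4.23, 5.95, 8.2 and 8% of miRNA reads on the 4 days and rose by 0.73 ± 0.18 on the log2 scale (edgeR adjusted p = 0.00109), or by 0.44 without day 6 (edgeR adjusted p = 0.173). miR-100-5p, which differs from it by 1 of 22 bases and lies on chromosome 9, stood at 44542, 44521, 35141 and 31618 RPM and did not pass (log2 -0.34, edgeR adjusted p = 0.267). The level of miR-99a-5p was near that of miR-100-5p on day 6 and above it on days 10, 17 and 24. The difference between their changes was not tested.

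The 3p arms of miR-125b, whose 5p arm is identical from chromosomes 9 and 16, passed in opposite directions. miR-125b-1-3p, from chr9:41581926-41582002 (GRCm38, plus strand), stood at 577.1, 249, 162.9 and 167.7 RPM and fell by 1.21 on the log2 scale (edgeR adjusted p = 1.56e-05). miR-125b-2-3p, from chromosome 16, stood at 292.5, 405.2, 594.4 and 543.7 RPM and rose by 0.77 (edgeR adjusted p = 0.01). The ratio of the first to the second went from 8.83 on day 0 through 1.97, 0.614, 0.274 and 0.309 on days 6, 10, 17 and 24, while it was 1.16, 1.27 and 1.17 in the calvaria libraries. Both changes leaned on day 6, without which the values were -0.60 (edgeR adjusted p = 0.184) and 0.48 (edgeR adjusted p = 0.285). The shared arm miR-125b-5p stood at 20024, 14981, 11520 and 11412 RPM and did not pass (log2 -0.52, edgeR adjusted p = 0.0598).

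let-7c-5p, from chromosome 16 and elsewhere, stood at 25783, 32707, 40566 and 37109 RPM and did not pass (log2 0.48, edgeR adjusted p = 0.0703). Its passenger arm from the chromosome 16 hairpin, let-7c-1-3p, went the other way, from 72.89 and 63.45 RPM early to 32.86 and 33.18 RPM late (log2 -0.96, edgeR adjusted p = 0.00483). Of the let-7 family, known as markers of differentiated cells, 0 of 10 members rose or fell, where 14.5% of all 380 did so. All 10 had a log2 change above 0, 8 with library totals, and their median was 0.17.

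**Figure D4:**
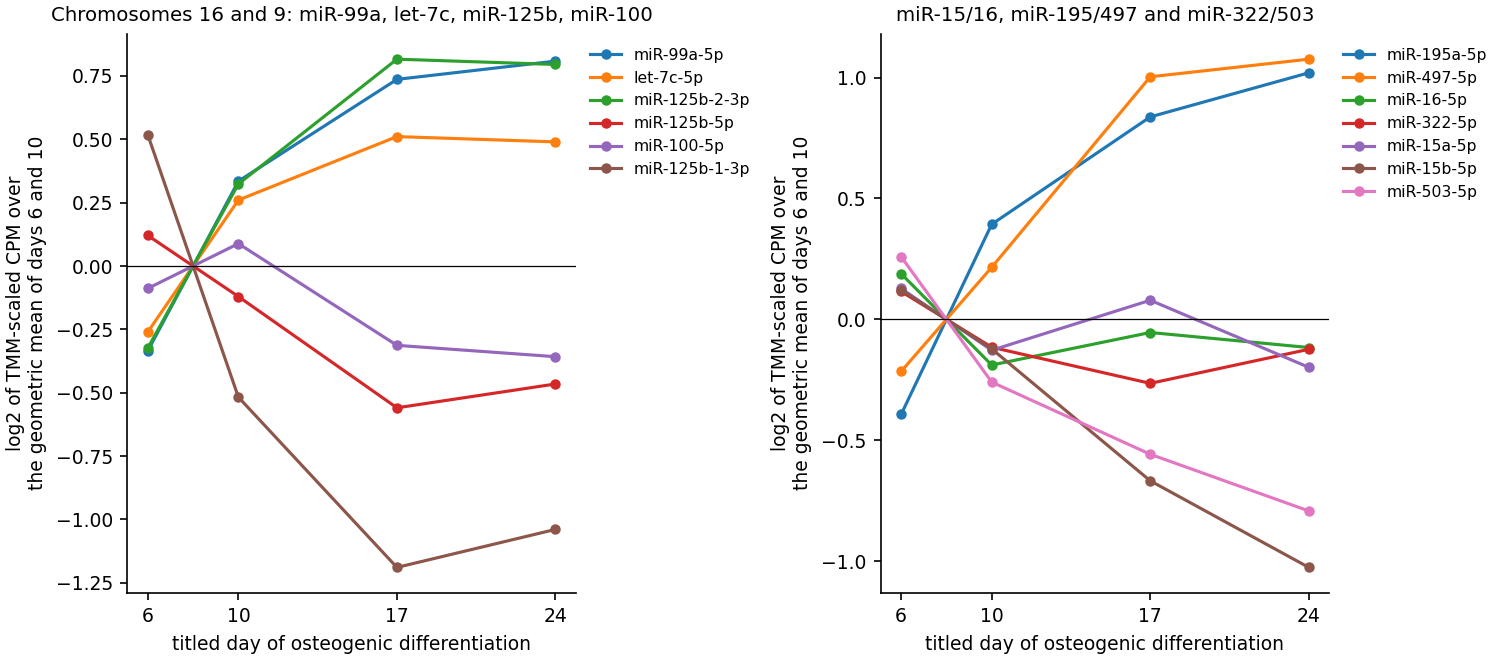
Level of each miRNA as log2 of TMM-scaled CPM relative to the geometric mean of days 6 and 10 (y axis) on the 4 titled days (x axis), 1 library a day, so that lines cross 0 between days 6 and 10 by construction. On the left, miR-99a-5p and miR-125b-2-3p of chromosome 16 end above 0 and miR-100-5p and miR-125b-1-3p of chromosome 9 end below. On the right, miR-195a-5p and miR-497-5p end above 0 and miR-15b-5p and miR-503-5p below.

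The family of miR-15, miR-16, miR-195 and miR-497, which represses cyclins and other cell cycle genes, also held members of opposite direction. Of 9 tested, 2 rose and 1 fell, against 6.84% and 7.63% of all 380, with a median of -0.10. miR-195a-5p, at chr11:70235042-70235135 (GRCm38), stood at 290, 442.1, 627.3 and 660.9 RPM and rose by 0.88 on the log2 scale (edgeR adjusted p = 0.00274). It was at 23.64 RPM on day 0. Its cluster mate miR-497-5p stood at 98.87, 117.9, 212.2 and 207.1 RPM and rose by 1.02 (edgeR adjusted p = 0.000366). miR-15b-5p, from an intron of Smc4, a gene of chromosome condensation, at chr3:69009772-69009835 (GRCm38), stood at 240.8, 179.7, 128.4 and 92.99 RPM and fell by 0.84 (edgeR adjusted p = 0.00506).

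Among the other carriers of this seed, miR-16-5p (log2 -0.10), miR-15a-5p (log2 -0.05) and miR-322-5p (log2 -0.20) did not pass. A sum was taken over the 5 tested miRNAs with exactly this seed in a RefSeq sequence of the same name, which left out miR-497-5p. It was 1570, 1498, 1657 and 1690 TMM-scaled CPM on days 6 to 24. Among these 5, 1 rose and 1 fell, and the late to early ratio was 1.09. miR-497-5p, which also rose, stood at 90.36, 121.8, 210.3 and 221.2 TMM-scaled CPM. miR-503-5p, with 1 base of the seed changed, stood at 316.3, 195.2, 165.5 and 130.5 RPM and fell by 0.69 (edgeR adjusted p = 0.0264). It was the 1 member of the miR-322 and miR-503 cluster of the X chromosome to pass of 10 tested, where 14.5% of all 380 passed. The median of the 10 was -0.28. Without day 6 the adjusted p was 0.184 for miR-195a-5p, 0.0527 for miR-497-5p, 0.11 for miR-15b-5p and 0.485 for miR-503-5p by edgeR.

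The miR-17-92 cluster and its paralogs, which promote proliferation and are driven by MYC and E2F factors, held 5 members that fell and 0 that rose of 13 tested. The other 8 did not pass. The log2 change was below 0 in 12 of the 13 under each scaling, with a median of -0.48. Both late libraries lay below both early ones in 8. Over all 380, 29.2% lay below in this way and 7.63% were called lower late. 4 of the 5 come from Mir17hg (chr14:115043671-115044506, GRCm38, plus strand), miR-92a-3p also from a copy on the X chromosome, and miR-93-5p from the Mcm7 locus (chr5:138165321-138165818, GRCm38). miR-20a-5p stood at 2332, 1526, 1048 and 692.6 RPM, falling at each step without overlap of sides. It fell by 1.06 on the log2 scale, the fitted early level being 2.08-fold the late one (edgeR adjusted p = 0.00012). miR-17-5p stood at 685.2, 381.3, 295.6 and 196.8 RPM and fell by 1.02 (edgeR adjusted p = 0.000365). miR-93-5p stood at 1909, 1308, 1016 and 765 RPM and fell by 0.76 (edgeR adjusted p = 0.00863).

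The seed AAAGUGC, summed over its 4 tested carriers, went from 4703 and 3469 TMM-scaled CPM early to 2517 and 1873 late, a ratio of 0.537. Members of other seeds in the same cluster were less uniform. miR-92a-3p stood at 1722, 976.9, 805 and 812.8 RPM and fell by 0.63 (edgeR adjusted p = 0.0406), a call that held under 2 of the 15 settings. miR-18a-5p stood at 49.44, 14.49, 17.26 and 12.76 RPM, so that day 17 lay above day 10. Its fall (log2 -0.97, edgeR adjusted p = 0.019) turned to 0.053 without day 6. miR-19b-3p comes from the same primary transcript and, like miR-92a-3p, also from a copy on the X chromosome, which its counts do not tell apart. It stood at 294.4, 343.5, 436.1 and 315.2 RPM and did not pass (log2 0.30, edgeR adjusted p = 0.436). With library totals, 0 of the 13 passed. Without day 24, the adjusted p was 0.264 for miR-20a-5p and 0.248 for miR-17-5p by edgeR.

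miR-196a-5p, encoded within Hox clusters (chr11:96265164-96265265, and in an intron of Hoxc5 at chr15:102973350-102973434, GRCm38), had the largest fall among miRNAs averaging at least 50 RPM. It stood at 119.5, 66.67, 38.57 and 26.62 RPM, falling at each step. The log2 change was -1.41 ± 0.26 (edgeR adjusted p = 5.3e-06), and the fitted early level was 2.65-fold the late one. Its relative miR-196b-5p, with the same seed, did not pass (log2 -0.43, edgeR adjusted p = 0.275). Calvaria held 0 to 1.48 RPM of miR-196a-5p, and day 0 held 125.8 RPM. Of 6 Hox cluster miRNAs tested, 1 fell and 0 rose, where 7.63% of all 380 fell.

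miR-21a-5p, a miRNA of growth and fibrosis in an exon of Vmp1 (chr11:86584067-86584158, GRCm38), was the most abundant miRNA of the early days. It stood at 201369, 188583, 112325 and 129985 RPM, which is 20.1, 18.9, 11.2 and 13% of all miRNA reads. It fell by 0.60 on the log2 scale (edgeR adjusted p = 0.00621). The 2 early libraries were close and above both late ones. Its level on day 0 was 455477 RPM and in calvaria 74276 RPM (range 54076 to 97400). The call was lost without day 17 (edgeR adjusted p = 0.39) or day 24 (edgeR adjusted p = 0.234). RPM values are shares of 1 total, and the fit therefore used TMM factors, which lay between 0.936 and 1.094.

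Other miRNAs that fell came from several loci. miR-335-3p, from an intron of the imprinted gene Mest, stood at 795.1, 475.4, 263.7 and 365.4 RPM and fell by 0.90 (edgeR adjusted p = 0.00199), while its other arm miR-335-5p did not pass (log2 0.24). miR-374b-5p, from an intron of the noncoding RNA gene Ftx, stood at 867.2, 732, 500.7 and 342.9 RPM and fell by 0.84 (edgeR adjusted p = 0.00433). miR-34c-3p stood at 128, 119.2, 76.13 and 64.91 RPM and fell by 0.73 (edgeR adjusted p = 0.0264). Its more abundant arm miR-34c-5p, of a family transcribed by p53, stood at 12682, 13521, 11126 and 8797 RPM and did not pass (log2 -0.32, edgeR adjusted p = 0.334). miR-30e-3p fell by 0.82 (edgeR adjusted p = 0.0128) while miR-30e-5p had a log2 change of -0.12 and did not pass. miR-467a-5p stood at 777.8, 520.2, 382.9 and 324.3 RPM and fell by 0.78 (edgeR adjusted p = 0.00863). miR-467b-5p was exactly 10.0 times lower in every library, so the reads of the pair were divided by a fixed rule and they count as 1 signal. Another entry of that family, miR-467c-5p, stood at 147.5, 75.9, 68.56 and 59.18 RPM and fell by 0.70 (edgeR adjusted p = 0.0365).

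The 3 largest falls belonged to scarce entries. miR-3473b stood at 84.16, 63.61, 14.06 and 10.3 RPM and fell by 2.51 on the log2 scale (edgeR adjusted p = 5.92e-14), the fitted early level being 5.70-fold the late one. miR-3473e, with the same first bases, stood at 51.95, 42.52, 8.1 and 6.9 RPM and fell by 2.55 (edgeR adjusted p = 3.26e-12). Of 47 mature sequences searched in 141767 GENCODE transcripts, that of miR-3473b matched transcripts of 343 genes exactly, and each of the others matched those of 0 to 3 genes. miR-3096a-5p stood at 34.86, 30.12, 3.17 and 4.74 RPM and fell by 3.01 (edgeR adjusted p = 1.36e-12). Its rarer late level rests on few counts, with an exact 95% Poisson interval of 1.57 to 5.32 RPM on day 17. miR-3096b-5p fell by 1.65 (edgeR adjusted p = 1.65e-06). miR-5121, which fell by 1.15 (edgeR adjusted p = 0.00825), overlaps the small nucleolar RNA Snord33 within Rpl13a. Whether reads of other RNAs contributed to these entries was not tested.

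Some risers were also scarce. miR-871-3p, from the X chromosome, stood at 1.58, 2.58, 11.67 and 6.93 RPM and rose by 2.24 ± 0.50 on the log2 scale (edgeR adjusted p = 0.000173). Its early levels came from 5 and 8 counts, so it is 1 of the 3 miRNAs that passed the count filter only through the late libraries, and its direction was largely fixed by that filter. The same holds in reverse for miR-32-3p, called lower late (log2 -1.79). Its late levels came from 4 and 7 counts, so it passed the filter only through the early libraries. miR-499-5p, from an intron of the myosin gene Myh7b, stood at 4.12, 7.73, 19.8 and 16.04 RPM and rose by 1.67 (edgeR adjusted p = 0.000271). The other muscle miRNAs tested with it, such as miR-1a-3p (log2 0.56) and miR-206-3p (log2 -0.32), did not pass. miR-146a-5p, a feedback regulator of NF-κB signalling, stood at 10.93, 13.69, 28.93 and 31 RPM and rose by 1.37 (edgeR adjusted p = 0.00053). Its seed mate miR-146b-5p was at 10982, 12044, 10508 and 11866 RPM and did not pass (log2 0.04). The seed as a whole, given by miR-146b-5p, thus had a late to early ratio of 1.03.

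Lists drawn from the bone literature did not move as blocks. Of 10 tested miRNAs reported to promote osteoblast differentiation, 4 rose (miR-210-3p, miR-29a-3p, miR-29b-3p and miR-101a-3p), 3 fell (miR-196a-5p, miR-20a-5p and miR-15b-5p) and 3 did not pass, with a median of 0.29. Of 15 reported to restrain it, miR-27a-3p rose, 0 fell and 14 did not pass, with a median of -0.02. The median over all 380 was -0.07, and 14.5% of them passed in either direction. Among those that did not pass, miR-218-5p stood at 2915, 2982, 3094 and 2427 RPM (log2 -0.02) and miR-31-5p at 3827, 3098, 3538 and 2897 RPM (log2 -0.02). Of 8 inflammatory and hypoxia-induced miRNAs, 3 rose, among them both arms of miR-210, and miR-21a-5p fell, with a median of -0.05.

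**Figure D5:**
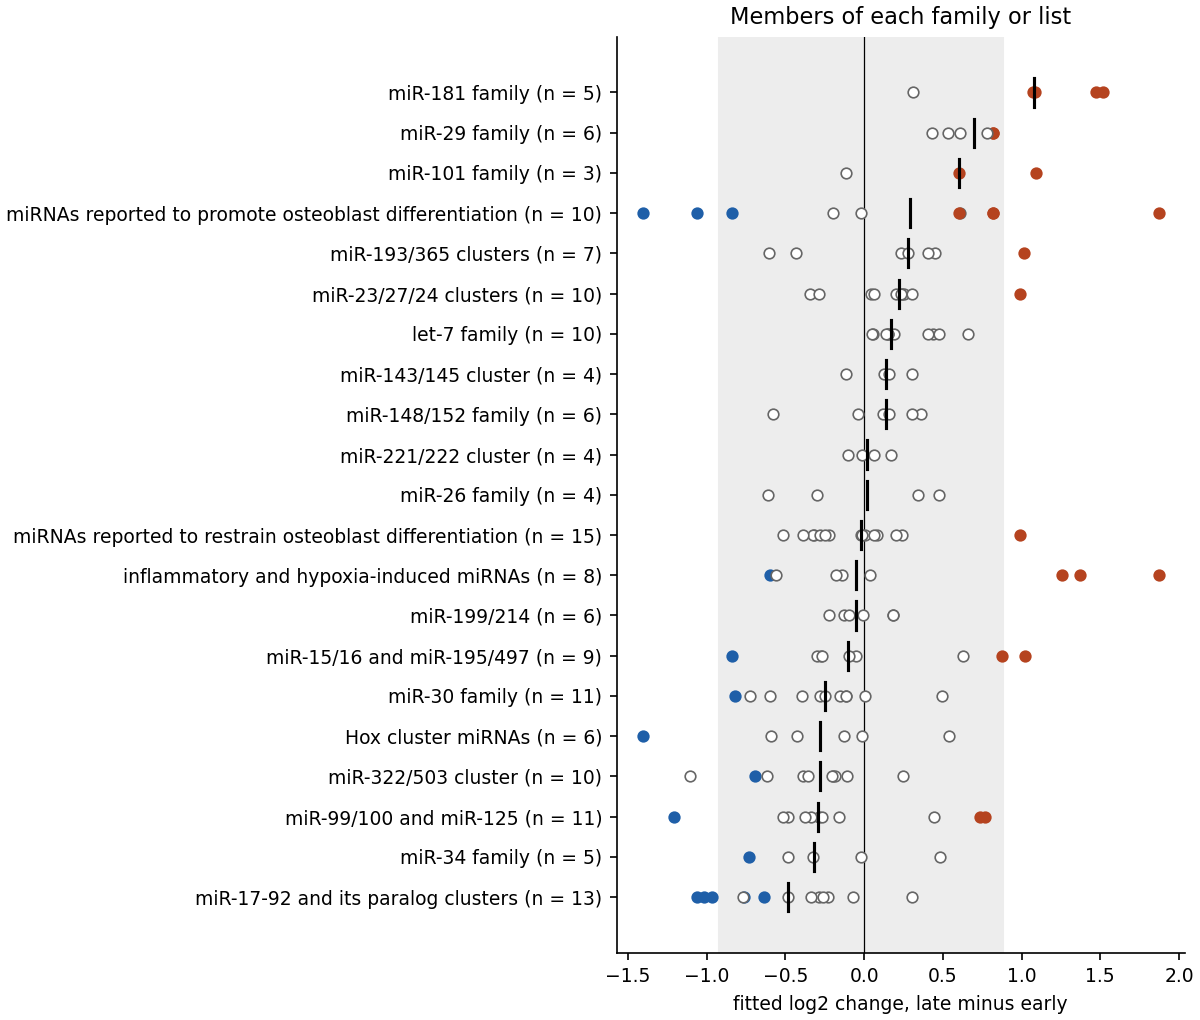
Fitted log2 change of late against early (x axis) for the tested members of each family or list (y axis, with the number tested). Red points rose and blue points fell at an adjusted p under 0.05, open points did not pass, black bars are list medians and the grey band spans the 5th to 95th percentile of all 380 miRNAs (-0.92 to 0.88). The miR-181 family has its median of 1.08 outside the band, and the list of miR-99, miR-100 and miR-125 has passing members at both ends.

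Several abundant miRNAs of the lineage did not pass the test. miR-143-3p, a marker of mesenchymal cells, stood at 98901, 97123, 117479 and 111964 RPM and did not pass (log2 0.31, edgeR adjusted p = 0.275). let-7i-5p had a log2 change of 0.40 and let-7f-5p of 0.05, and neither passed. Counts of members that passed were 0 of 6 for miR-199 and miR-214 (median -0.05), 0 of 4 for the miR-221 and miR-222 cluster (median 0.02) and 0 of 6 for the miR-148 and miR-152 family (median 0.14). Likewise 0 of 4 passed for miR-143 and miR-145 (median 0.14) and 0 of 4 for miR-26 (median 0.02). Over all 380, 14.5% passed. The miR-30 family had 1 of 11 fall (median -0.25), the miR-34 family 1 of 5 fall (median -0.32), and of the 7 tested miRNAs of the miR-193 and miR-365 clusters miR-193a-3p rose (log2 1.01, edgeR adjusted p = 0.0196). Of 15 miRNAs of the Dlk1-Dio3 imprinted cluster only miR-379-5p reached the count filter, at 6.97, 7.09, 3.3 and 2.19 RPM (log2 -1.23, edgeR adjusted p = 0.0703), against 11330 RPM in calvaria.

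Genomic position and hairpin arm were not used in choosing the miRNAs tested, though other arms and members of some clusters were among those named by rule. Positions were at hand only for miRNAs with a RefSeq sequence of the same name. These were 287 of the 380 tested and 47 of the 55 called, and the counts of clusters and arms leave out the rest. miR-497-5p is left out in this way, so its cluster with miR-195a-5p, both called higher late, is not counted. Hairpins within 10000 bases of each other on a strand formed 30 clusters of 2 or more, and 14 of these held a call. In 9 of the 14 there was a single call, so the direction within the cluster was not in question. Of the 5 with 2 or more calls, all calls were higher late in 3 (both miR-181 clusters, which share their 5p arms, and that of miR-29a and miR-29b-1), all were lower late in 1 (Mir17hg), and calls went both ways in 1 (miR-99a and let-7c-1). No test of this was made, and 14.5% of all miRNAs were called in either direction. Both arms were tested for 100 hairpins, and the arms had the same sign of log2 change in 63. Of the 26 hairpins with a called arm 22 had the same sign in the other arm, and in 4 both arms passed: Mir181a-1, Mir181b-1, Mir210 and Mir22. The arms of Mir125b-2, Mir27a, Mir335 and Mirlet7c-1 had opposite signs. Arms of miRNAs with several loci share 1 mature sequence, so these counts are not independent.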

How the data were processed

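Small RNA of 8 mouse libraries, made with the NEBNext Small RNA library prep kit, was measured, and 4 were compared. The authors deposited raw expected counts per mature miRNA and precursor (1418 entries) and a second table in RPM, where each value is the raw one divided by the library total, to within 0.013 RPM. cutadapt 0.9.5, Bowtie 0.12.7 and mm10 are named without roles in the submitters' processing notes. Which quantifier and which miRBase release were used was not given in the sources used here. Whole numbers (to within 0.005) made up 82.4% of the nonzero raw values of single-entry miRNAs but 17% of those of the 76 miRNAs with several entries, so reads had been divided among entries.

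Counts were summed per mature miRNA, rounded, and tested with edgeR 4.0.16 (R 4.3.3) by the quasi-likelihood test with TMM factors and Benjamini-Hochberg adjustment over all 380 miRNAs at a threshold of 0.05. limma 3.58.1 on log2 RPM with pseudocounts of 1 and 10, DESeq2 1.42.0, other scalings, filters and left-out libraries were alternatives. The scripts were checked on simulated data. Poisson intervals cover counting error only, since no molecular identifiers are named for these libraries and repeated reads may come from 1 molecule.

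miRNAs were named by rule. With at least 50 RPM on average and no overlap between sides, the 12 largest changes in each direction were taken. Those called among the 12 smallest p values, the other arms, the 5 most abundant miRNAs and the members of the lists were added. miR-22-3p, miR-22-5p, miR-32-3p, miR-871-3p, miR-486-3p, miR-467b-5p, miR-467c-5p, miR-5121, miR-378a-3p, miR-378b and miR-378c were chosen after their values were seen. The comparison, its members and the lists were chosen with earlier results of these data known. Hairpin positions came from RefSeq and their annotation from GENCODE, both on GRCm38, the build of mm10.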

Additional observations from a re-analysis of the deposited data

How the results depend on the processing

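No paired analysis was possible because each day was 1 pooled library and the replicate numbers only order the days within a side. Against 26 miRNAs higher and 29 lower late, the counts were 6 and 5 with library totals and with either limma pseudocount, 0 and 0 with each miRNA's own spread (an alternative added after seeing the data), 17 and 7 with all 8 libraries in the fit, and 29 and 19 with no count filter (722 tested). They were 21 and 18 by the DESeq2 Wald test, 17 and 21 with a minimum of 100 counts, and 34 and 38 with entries kept per precursor. Without 1 library they ranged from 11 to 41 higher and from 10 to 43 lower. Slopes over days 6 to 24 and the robust prior (also added after seeing the data) gave 27 and 30 each. The cause of these differences was not tested, except that fewer libraries or miRNAs entered some fits.

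Of 1152 checks of single miRNAs under an alternative, 783 kept direction and side of the threshold, 362 kept direction but lost the call, 6 gained one and 1 reversed: miR-18a-5p, 0.053 without day 6, where its change without 1 library ranged from -1.50 to 0.053. Of 147 checks of list medians, 117 moved less than the spread within a side. The miR-30 median was -0.18 with DESeq2 size factors and -0.35 with library totals, the miR-143 and miR-145 median 0.21 and 0.06 (0.17 with upper quartile factors), the miR-26 median 0.09 and -0.06, and the median of miRNAs reported to restrain differentiation 0.05 and -0.11. Over all miRNAs the median was -0.07 with TMM, -0.04 with upper quartile factors and -0.15 when only library totals were used.

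Without 1 library, medians ranged from 0.23 to 1.14 (miR-101), 0.60 to 0.94 (miR-29), -0.65 to -0.24 (miR-17-92), 0.17 to 0.39 (let-7), -0.28 to -0.25 (miR-30), -0.45 to -0.14 (miR-34), 0.09 to 0.31 (miR-23, miR-27 and miR-24), 0.12 to 0.18 (miR-143 and miR-145), -0.11 to 0.06 (miR-199 and miR-214), -0.31 to 0.43 (miR-221 and miR-222), 0.09 to 0.48 (miR-193 and miR-365), -0.03 to 0.20 (miR-148 and miR-152), -0.05 to 0.14 (miR-26), 0.07 to 0.42 (promote), -0.12 to 0.01 (restrain) and -0.13 to 0.24 (inflammatory and hypoxia). At these depths 10 counts equal 2.54 to 3.65 RPM, so changes of miRNAs near that level are imprecise.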
